A study of Homo sapiens with 18 samples.

Results

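The genes described here are the D-type cyclins CCND1, CCND2 and CCND3, the E-type cyclins CCNE1 and CCNE2, the kinases CDK4, CDK6 and CDK2, the kinase inhibitor CDKN1B and the pocket protein RB1. They were chosen by gene symbol, and all 10 were found among the 8996 genes of the deposited table; no member was absent. The table holds RNA half-lives and synthesis rates from SLAM-seq, which reads T-to-C conversions in newly made RNA. The cells were HEK293T, an established line from human embryonic kidney, with the genotype given as wild type. Cells received STM2457, a small-molecule inhibitor of the m6A methyltransferase METTL3, or the solvent DMSO for 3 h. They were then labelled with 100 µM 4-thiouridine (s4U) for 90 or 180 min or left without s4U, with 3 samples for each of the 6 combinations and 18 samples in all. HEK293T cells carry adenovirus early genes and the SV40 large T antigen, and large T binds RB-family proteins, which limits these cells as a model of normal G1 control.

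At the G1/S boundary, D-type cyclins activate CDK4 and CDK6, and E-type cyclins activate CDK2. Both kinase classes phosphorylate RB1, which otherwise holds E2F transcription factors in check, and p27, the product of CDKN1B, binds and inhibits cyclin-CDK2 complexes. Several of these mRNAs are short-lived regulators whose supply depends on continuing transcription. The methyl mark m6A on mRNA is known to speed decay of many transcripts.

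Each treatment has 1 fitted half-life and 1 fitted synthesis rate per gene, with no value per sample, replicate or labelling time, and no read counts. Depth is therefore unknown, no p-value or error can be given, and what is compared is always 1 fitted value with another. A gene is called longer-lived, shorter-lived, higher or lower where its STM2457 value was more than 1.5-fold above or below its DMSO value, a rule set by size alone. Half-lives are given without a time unit. They are read as hours, since their ceiling of 69.3 equals the half-life at a decay rate of 0.01 and their range suits the labelling times. Synthesis rates have no stated unit, and it is not given whether they are per length, so their levels are compared between treatments of 1 gene; levels of different genes enter only a measure of similar kinetics given last. METTL3 mRNA had a half-life of 3.51 h in STM2457 and 4.00 h in DMSO, which is no check of the inhibitor, since it acts on the protein. Of 8 markers fixed for HEK293T, 5 were in the table (VIM, NEFL, NEFM, KRT18 and LIN28B), while PAX2, KRT8 and ENO2 were not. Of 10 genes that mark other cell types, the table held COL1A1 and CDX2 only, 2 in all.

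Among the 10 genes, 3 were shorter-lived in STM2457 than in DMSO (CCND3, RB1 and CCND1), 1 was longer-lived (CCNE2) and the other members stayed within 1.5-fold. Of all genes in the table, 24.9% were shorter-lived and 28.5% longer-lived. The median log2 ratio of half-lives was -0.47 over the 10 genes and -0.01 over all genes, and 8 of the 10 had a ratio below 0, against 50.2% of all genes. The counts past 1.5-fold were of the size that the shares over all genes give for 10 genes, and nothing is read from them beyond the values of each member. Half-lives of the 10 ran from 0.827 h (CDKN1B) to 9.69 h (CDK4) in STM2457 and from 0.713 h (CDKN1B) to 21.9 h (RB1) in DMSO. Their medians were 3.53 h in STM2457 and 6.54 h in DMSO, against 5.39 h and 5.61 h over all genes.

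**Figure D1:**
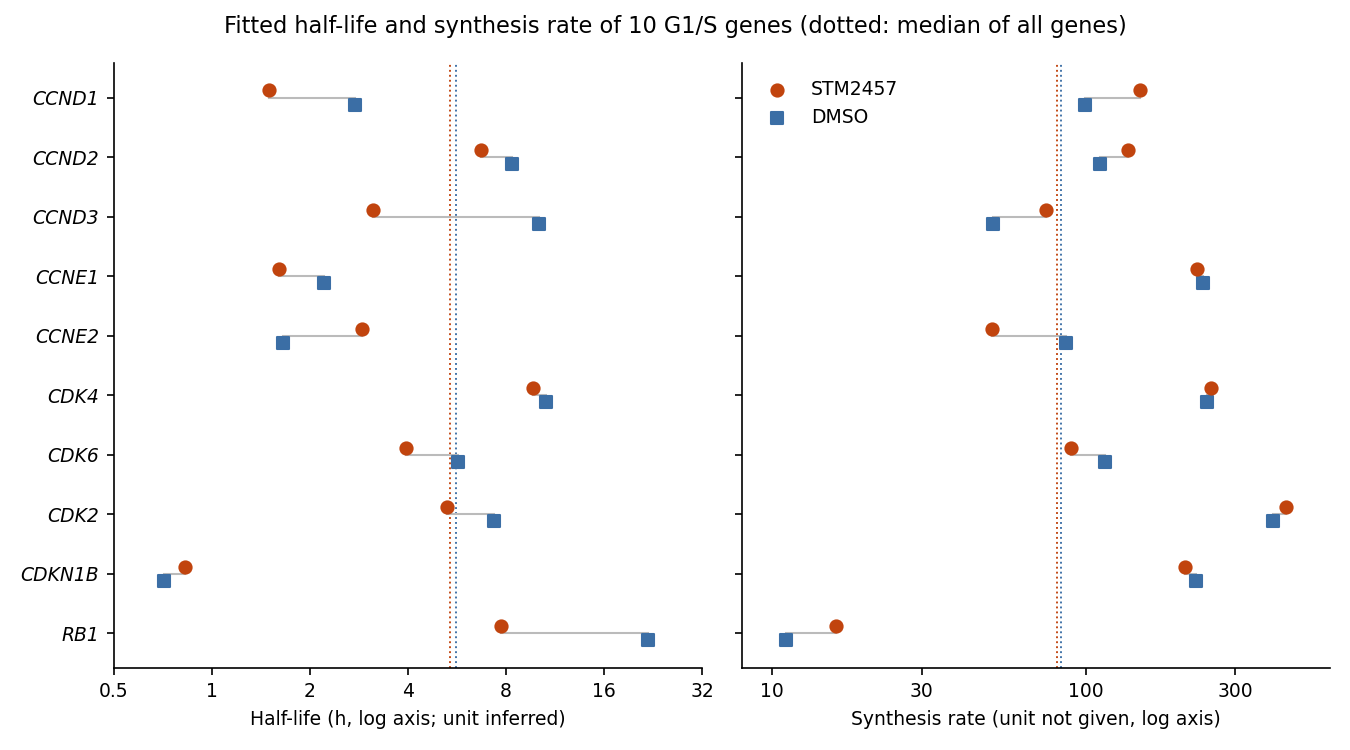
Fitted half-life (left, hours, log axis) and synthesis rate (right, unit not given, log axis) of each gene in STM2457 (circles) and DMSO (squares), 1 fitted value each with no error available; dotted lines are the medians of all genes in the table. The longest grey lines in the half-life panel belong to CCND3 (3.12 h in STM2457, 10.1 h in DMSO) and RB1 (7.72 h in STM2457, 21.9 h in DMSO), and CCNE2 is the member whose STM2457 circle lies well to the right of its DMSO square.

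The order of the half-lives differed between treatments. In STM2457 it ran, from short to long, CDKN1B, CCND1, CCNE1, CCNE2, CCND3, CDK6, CDK2, CCND2, RB1 and CDK4. In DMSO it ran CDKN1B, CCNE2, CCNE1, CCND1, CDK6, CDK2, CCND2, CCND3, CDK4 and RB1. With no error on any value, it cannot be said which neighbours in these orders differ. CDKN1B was the shortest-lived of the 10 in both treatments, at the percentile 0.717 of all genes in STM2457 and 0.528 in DMSO. CDK4 was among the 2 longest-lived in both, at the percentile 70.6 in STM2457 and 75.5 in DMSO.

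The D-type cyclins, which bind CDK4 and CDK6, differed from one another. CCND3 (ENSG00000112576.12, chromosome 6, 41934933 to 42050357, minus strand; GRCh38 throughout) had a half-life of 3.12 h in STM2457 and 10.1 h in DMSO, 3.24-fold shorter. That ratio, -1.70 on the log2 scale, lay at the percentile 2.45 of all genes. CCND1 (ENSG00000110092.3, chromosome 11, 69641087 to 69654474, plus strand) had 1.5 h in STM2457 and 2.75 h in DMSO, 1.84-fold shorter, at the percentile 14.6 of all ratios. CCND2 (ENSG00000118971.8, chromosome 12, 4273772 to 4305350, plus strand) had 6.71 h in STM2457 and 8.37 h in DMSO, a log2 ratio of -0.32 and within 1.5-fold. CCND3 was thus shorter-lived than CCND2 in STM2457, where CCND2 had a 2.15-fold longer half-life, and longer-lived in DMSO, where CCND3 had a 1.21-fold longer half-life. The log2 half-life ratio of CCND2 exceeded that of CCND3 by 1.38.

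Half-life ratios in this table vary with the DMSO half-life, so each member was also set against the 200 genes nearest to it in DMSO half-life. The DMSO half-life is also the denominator of the ratio, so error in it would tie the ratio to it. How much of the variation comes from that was not tested. Those genes had a median log2 ratio of -0.47 around CCND3, 0.27 around CCND1 and -0.48 around CCND2. Relative to them, CCND3 stood at -1.23, CCND1 at -1.14 and CCND2 at 0.17, so the sign of CCND2 turns with this choice while CCND1 and CCND3 stay past 1.5-fold.

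Synthesis rates of all 3 D-type cyclins had ratios above 1. CCND1 had 149 in STM2457 and 99.3 in DMSO, a 1.51-fold higher rate and just past the rule. CCND3 had 74.9 in STM2457 and 50.8 in DMSO, a log2 ratio of 0.56, just inside it. CCND2 had 136 in STM2457 and 111 in DMSO, a log2 ratio of 0.30.

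The coding sequences of the 3 D-type cyclins have the same layout. Each has 5 coding exons in the transcript with the longest coding sequence (GENCODE release 29), a longest coding exon of 216 nt, and a coding length of 888 nt in CCND1, 870 nt in CCND2 and 879 nt in CCND3, stop codon included. The series title concerns m6A in coding regions, and m6A occurs in the DRACH motif, in which D is A, G or T, R is A or G, and H is A, C or T. Motifs were searched on the sense strand with overlaps allowed and are counted here where the A lies at least 100 nt from an exon junction. They are a feature of the sequence and not a measurement of m6A. CCND1 has 4 such motifs, CCND2 has 5 and CCND3 has 3, against a median of 3 over 8527 genes, of which 74.9% have at least 1. In each of the 3 genes they fall in the first and the last coding exon. The first and the last of them are shown for each gene to make that place visible, with up to 10 bases on each side of the A, cut at the ends of the coding sequence, and the motif in capitals. The position of the A counts from 1 at the start codon.
CCND1, position 6, chr11:69641314-69641329, plus strand: atgGAACAccagctcc
CCND1, position 881, chr11:69651265-69651282, plus strand: cgggacgtGGACAtctga
CCND2, position 26, chr12:4274056-4274076, plus strand: cacgaggtGGACCcggtccgc
CCND2, position 827, chr12:4299956-4299976, plus strand: gatgaactGGACCaagccagc
CCND3, position 53, chr6:41941587-41941607, minus strand: gccgggccGGACCcgcggctg
CCND3, position 841, chr6:41935968-41935988, minus strand: gcccagccAGACCagcactcc

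Among the 3 genes the half-life ratios and the motif counts had the same order: CCND2, with 5, had a log2 ratio of -0.32, CCND1, with 4, had -0.88, and CCND3, with 3, had -1.70. The counts differ by 1 motif from gene to gene, and nothing is read from an order of 3 genes. Over all genes the median log2 ratio was -0.02 with 4 to 9 such motifs and -0.22 with 1 to 3. These classes differ in many other features, and what part motifs have in the values of the D-type cyclins was not tested.

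The 3′ UTRs of the D-type cyclins also differ. In the APPRIS principal transcript, the isoform that annotation treats as the main one, the 3′ UTR is 3192 nt in CCND1, 5341 nt in CCND2 and 1007 nt in CCND3. The pentamer ATTTA, the core of AU-rich elements that recruit decay factors, was counted on the sense strand with overlaps allowed. It occurs 7 times in CCND1, 8 times in CCND2 and 2 times in CCND3, against a median of 2 over all genes. The 28.9% of genes without it had median half-lives of 7.27 h in STM2457 and 7.96 h in DMSO, and the 22.8% with 4 to 9 had 4.66 h in STM2457 and 4.60 h in DMSO. CCND1, with 7, lay below the median of that class in both treatments, and CCND2, with 8, lay above it in both.

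The E-type cyclins, the partners of CDK2, had ratios of opposite sign. CCNE2 (ENSG00000175305.17, chromosome 8, 94879770 to 94896678, minus strand) had a half-life of 2.89 h in STM2457 and 1.65 h in DMSO, 1.75-fold longer and the only member past the rule in that direction. CCNE1 (ENSG00000105173.14, chromosome 19, 29811898 to 29824308, plus strand) had 1.60 h in STM2457 and 2.21 h in DMSO, a log2 ratio of -0.46 and within 1.5-fold. The longer-lived cyclin E mRNA was therefore CCNE2 in STM2457, by 1.80-fold, and CCNE1 in DMSO, by 1.34-fold. The log2 ratio of CCNE2 exceeded that of CCNE1 by 1.27.

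Genes with like DMSO half-lives had ratios above 0 at the median, which bears on both E-type cyclins. The 200 genes nearest in DMSO half-life had a median log2 ratio of 0.43 around CCNE2 and 0.38 around CCNE1. Relative to these medians CCNE2 stood at 0.37, no longer past 1.5-fold, and CCNE1 at -0.85, past it.

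The synthesis rate of CCNE2 was 50.1 in STM2457 and 86.6 in DMSO, 1.73-fold lower, while that of CCNE1 was 227 in STM2457 and 236 in DMSO, a log2 ratio of -0.06. CCNE2 was the only one of the 10 with a synthesis rate past the rule on the lower side and CCND1 the only one on the higher side; of all genes, 13.2% were lower and 12.6% higher. Both E-type cyclins have 11 coding exons, a longest coding exon of 158 nt and few motifs far from a junction, 1 in CCNE2 and 0 in CCNE1. Over all genes, those with 0 had a median log2 half-life ratio of -0.22. ATTTA occurs 11 times in the 3′ UTR of CCNE2 (1862 nt) and 0 times in that of CCNE1 (531 nt), so the pair, both short-lived in DMSO, differs widely in this element.

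The 3 kinases had half-life ratios below 0 and within 1.5-fold. CDK4 (ENSG00000135446.17, chromosome 12, 57747727 to 57756013, minus strand), which acts with D-type cyclins, had 9.69 h in STM2457 and 10.6 h in DMSO, a log2 ratio of -0.13. CDK6 (ENSG00000105810.9, chromosome 7, 92604921 to 92836594, minus strand), the other kinase of the D-type cyclins, had 3.94 h in STM2457 and 5.72 h in DMSO, a log2 ratio of -0.54. CDK2 (ENSG00000123374.11, chromosome 12, 55966769 to 55972784, plus strand), the kinase of the E-type cyclins, had 5.29 h in STM2457 and 7.37 h in DMSO, a log2 ratio of -0.48. CDK4 had a 2.46-fold longer half-life than CDK6 in STM2457 and a 1.85-fold longer one in DMSO, the same order in both. Relative to the 200 nearest genes CDK4 stood at 0.41, CDK6 at -0.30 and CDK2 at -0.25, so CDK4 changes sign with this choice.

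Synthesis rates of the kinases stayed within 1.5-fold. CDK4 had 251 in STM2457 and 243 in DMSO, CDK6 had 89.6 in STM2457 and 115 in DMSO, and CDK2 had 434 in STM2457 and 395 in DMSO. CDK6 was the only kinase with both ratios below 0, at -0.54 for half-life and -0.36 for synthesis on the log2 scale. The CDK6 3′ UTR, at 10219 nt, lay at the percentile 99.0 of all genes by length and holds ATTTA 26 times. The count is 2 in CDK2 and 0 in CDK4.

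CDKN1B (ENSG00000111276.11, chromosome 12, 12715058 to 12722371, plus strand) encodes p27, which restrains cyclin-CDK2 complexes. Its half-life was 0.827 h in STM2457 and 0.713 h in DMSO, a log2 ratio of 0.21, and its synthesis rate was 207 in STM2457 and 224 in DMSO, a log2 ratio of -0.12. Both stayed within 1.5-fold. Its 3′ UTR (1344 nt) holds ATTTA 7 times. Its coding sequence differs from those of the other 9 genes in that most of it lies in 1 exon: the longest coding exon has 475 nt of 618 nt, against 158 to 233 nt in the others. It holds 10 DRACH motifs at least 100 nt from a junction, the most of the 10 genes, and 8 in the principal transcript, whose coding length is 597 nt. It is also the member with a GGACT motif at that distance, 1 in all, a form that 29.4% of genes have. The first 5 of these 10 motifs lie close together, and no other member has such a group at least 100 nt from a junction. Nearer to a junction, DRACH motifs also lie close together in other members, such as CDK6. The 5 of CDKN1B are shown at coding positions 82 to 162, on the plus strand of chr12:12717921-12718001, with the motifs in capitals.
CDKN1B: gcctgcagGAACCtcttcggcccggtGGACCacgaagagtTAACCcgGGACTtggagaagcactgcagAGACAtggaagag

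Genes with 10 or more such motifs had a median log2 half-life ratio of 0.48, and 45.8% of them were longer-lived. CDKN1B is in that class by its longest coding sequence and in the class of 4 to 9 by its principal transcript. At 0.21, CDKN1B lay below the median of 0.48 and above the median of -0.02 of the class of 4 to 9. Against the 200 genes nearest in DMSO half-life, whose median was 0.54, it stood at -0.33. The fit gives CDKN1B a nearly complete turnover during labelling. At a constant RNA level, the share of new RNA implied after 180 min was 91.9% in STM2457 and 94.6% in DMSO.

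**Figure D2:**
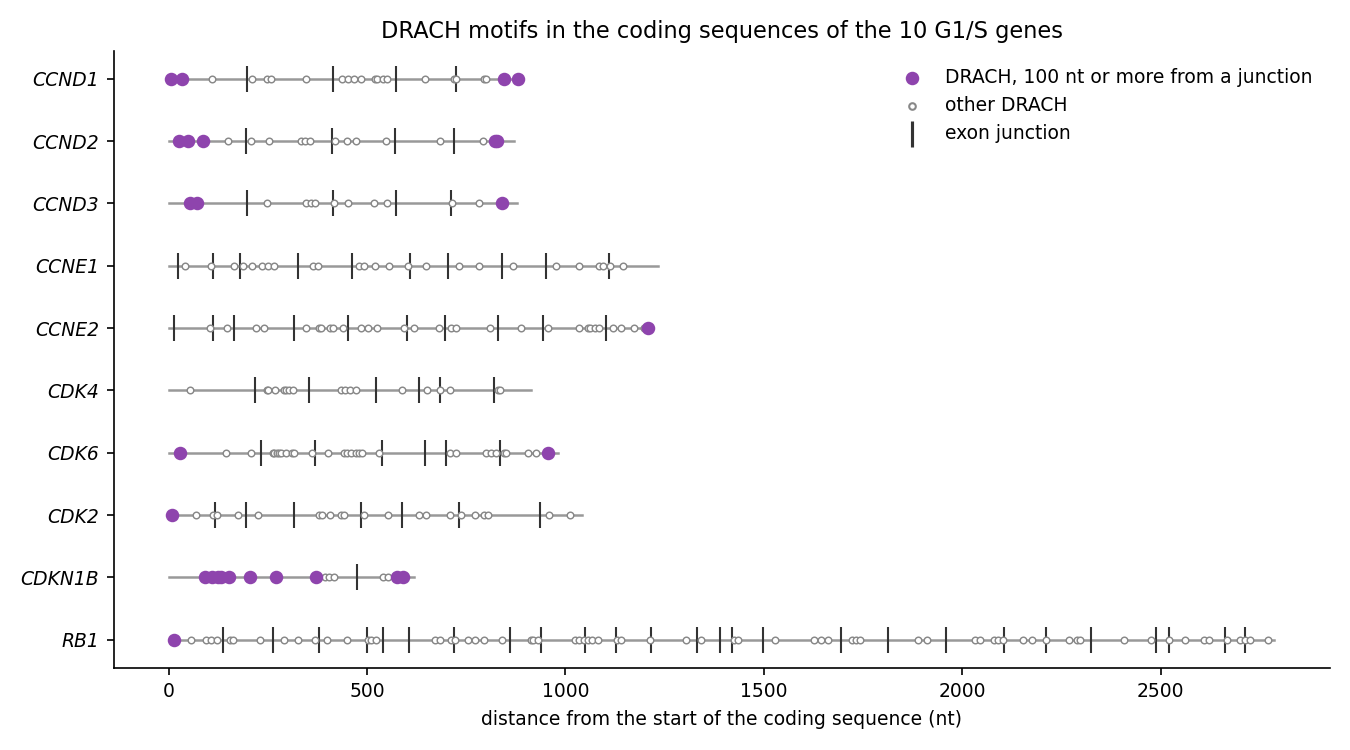
Coding sequences of the 10 genes drawn to scale from the start codon (x axis, nt), with exon junctions as vertical ticks, DRACH motifs at least 100 nt from a junction as filled circles and other DRACH motifs as open circles. CDKN1B has 10 filled circles, the D-type cyclins 3 to 5 at their ends, and CCNE1 and CDK4 have 0.

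RB1 (ENSG00000139687.15, chromosome 13, 48303726 to 48599436, plus strand), the repressor of E2F factors, had a half-life of 7.72 h in STM2457 and 21.9 h in DMSO, 2.84-fold shorter. Its log2 ratio of -1.51 lay at the percentile 3.64 of all genes and stood at -1.41 against the 200 nearest genes. Its synthesis rate was 16.0 in STM2457 and 11.1 in DMSO, a log2 ratio of 0.53, within 1.5-fold. RB1 has 27 coding exons, none over 197 nt, and 71 coding DRACH motifs, of which 1 lies at least 100 nt from a junction. ATTTA occurs 12 times in its 3′ UTR (1819 nt). Genes with 10 or more had median half-lives of 3.83 h in STM2457 and 3.89 h in DMSO, and RB1 lay above both. Both RB1 rates rest on little new RNA. At a constant RNA level, the fitted half-lives imply that 23.6% of RB1 RNA was new after 180 min in STM2457 and 9.05% in DMSO. After 90 min the shares were 12.6% in STM2457 and 4.63% in DMSO. CCND3 had a gap of the same kind, with 48.6% new after 180 min in STM2457 and 18.6% in DMSO. If the level of either gene was still falling in STM2457, its share there would be lower than given.

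The half-life and the synthesis rate of a gene come from 1 fit, and in 8 of the 10 genes their ratios had opposite signs, as in 60.9% of all genes. The exceptions were CCNE1 and CDK6. Synthesis rate divided by decay rate gives the level that a fit implies at steady state. By this measure 3 genes were lower in STM2457 than in DMSO: CCND3 at 0.455-fold, RB1 at 0.508-fold and CDK6 at 0.537-fold. None of the 10 was higher past 1.5-fold, the highest being CDKN1B at 1.07-fold. Of all genes, 24.7% were lower and 28.3% higher. CCNE2, with a 1.75-fold longer half-life and a 1.73-fold lower synthesis rate, had an implied level of 1.01-fold. CCND1 was at 0.820-fold and CCND2 at 0.988-fold, CCNE1 was at 0.696-fold, CDK2 at 0.789-fold and CDK4 at 0.944-fold.

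If STM2457 stayed on during labelling, which is assumed here, cells had been in STM2457 for 6 h at the last harvest. That is too short for slow mRNAs to reach a new steady state. If the STM2457 rates had held from its addition, starting from the DMSO level, CCND3 would have reached 0.599-fold, CDK6 0.698-fold and RB1 0.795-fold. Under that assumption CCND3 alone stays lower past 1.5-fold. These levels are computed from the fits and were not measured.

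**Figure D3:**
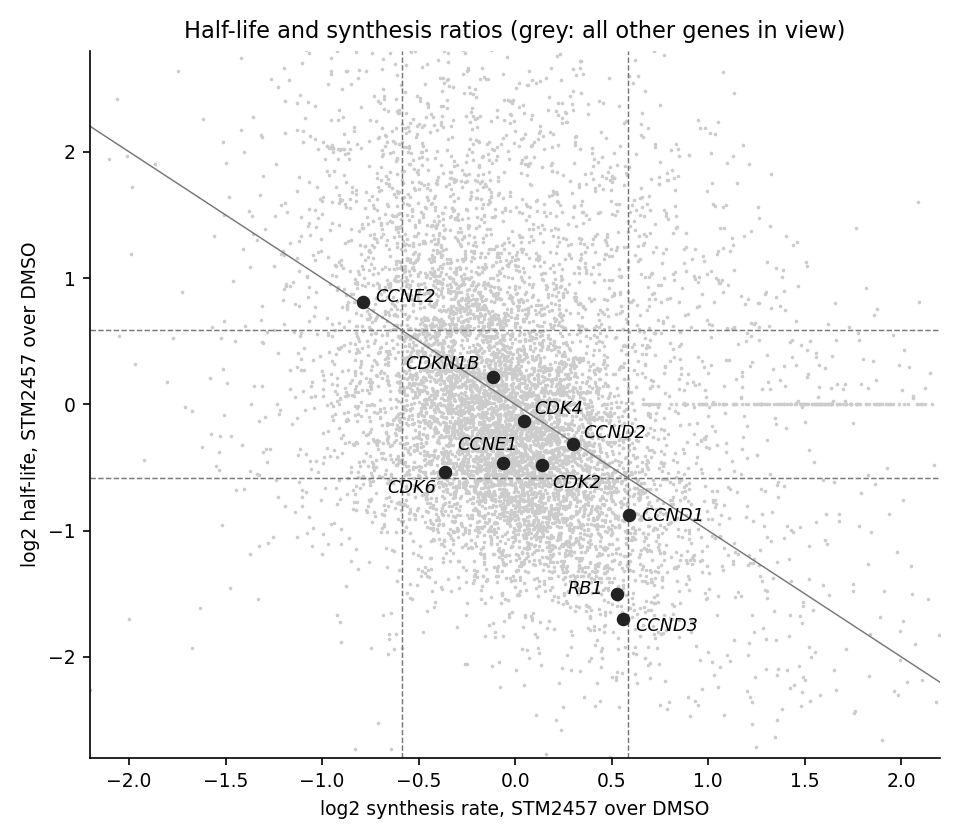
Log2 ratio of half-lives (y axis) against log2 ratio of synthesis rates (x axis), STM2457 over DMSO, for the 10 genes (black, named) and the other genes within the axes (grey); dashed lines mark 1.5-fold and the diagonal marks an unchanged implied level. CCNE2, CCND2, CDK4 and CDKN1B lie close to the diagonal, and CCND3, RB1 and CDK6 lie farthest below it.

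Other genes of the cell cycle, most of them acting at G1/S, were taken from 6 lists. Of 64 genes, 59 were in the table. Of these, 18 (30.5%) were shorter-lived, 12 (20.3%) were longer-lived and 29 stayed within 1.5-fold. Their median log2 half-life ratio was -0.12 and their median log2 synthesis ratio was -0.01. Among all genes the shares were 24.9% shorter-lived and 28.5% longer-lived, and the counts of each list below are to be read beside these shares. A further list, of cyclins and CDKs with roles in transcription or elsewhere, is drawn with these for comparison and is not counted among them.

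Of 6 other CDK inhibitors, 5 were in the table, with 3 longer-lived and 1 shorter-lived (median log2 ratio 0.93). CDKN2C, which binds CDK4 and CDK6, had 3.83 h in STM2457 and 2.01 h in DMSO, and CDKN2D, of the same family, had 1.64 h in STM2457 and 2.50 h in DMSO. The p53 target CDKN1A had 3.70 h in STM2457 and 3.12 h in DMSO, within 1.5-fold like its relative CDKN1B.

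Among 14 pocket proteins and E2F, DP and MuvB factors, there were 2 longer-lived and 3 shorter-lived genes (median log2 ratio -0.07). RBL1, the p107 relative of RB1, had 1.59 h in STM2457 and 3.97 h in DMSO, 2.50-fold shorter. RBL2, the p130 relative, had 3.71 h in STM2457 and 4.48 h in DMSO, within 1.5-fold. E2F4, the repressive partner of p107 and p130, had 17.1 h in STM2457 and 6.87 h in DMSO. E2F1, an activator that RB1 restrains, had 6.49 h in STM2457 and 6.05 h in DMSO. RBL2, E2F1 and the ceiling gene TFDP1, a DP subunit at 69.3 h in STM2457 and 17.7 h in DMSO, were chosen after their values were seen, as was CDKN1A.

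Of 7 genes of CDK activation and its counter-kinases, 0 were longer-lived and 3 shorter-lived (median -0.50). MNAT1, a subunit of the CDK-activating kinase, had 3.22 h in STM2457 and 8.33 h in DMSO. CCNH, the cyclin of that kinase, had 3.13 h in STM2457 and 6.13 h in DMSO. CDC25C, a phosphatase that removes inhibitory phosphates from CDKs, had 7.20 h in STM2457 and 5.26 h in DMSO. Of 13 ubiquitin ligase parts that act on cyclins and p27, 3 were longer-lived and 1 shorter-lived (median -0.01). SKP2, the receptor subunit that targets p27, had 5.62 h in STM2457 and 9.84 h in DMSO. AMBRA1, the receptor subunit that targets D-type cyclins, had 9.42 h in STM2457 and 2.73 h in DMSO, 3.46-fold longer.

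Of 16 E2F target genes of S phase entry, 7 were shorter-lived and 3 longer-lived (median log2 ratio -0.29). Of all genes, 24.9% were shorter-lived and 28.5% longer-lived. In synthesis, 0 of the 16 passed 1.5-fold in either direction, against 12.6% higher and 13.2% lower among all genes. MCM6 had 5.66 h in STM2457 and 13.1 h in DMSO, and MCM3 had 15.9 h in STM2457 and 8.80 h in DMSO, although both encode subunits of the same replicative helicase. CCNA2, the cyclin that follows cyclin E on CDK2, had 2.17 h in STM2457 and 4.56 h in DMSO. It belongs also to the list of 5 other cell-cycle cyclins and CDKs, of which 4 were shorter-lived. There CCNB2 had 3.96 h in STM2457 and 9.13 h in DMSO, and CCNB1 had 3.03 h in STM2457 and 5.30 h in DMSO. The exception, CCNF, chosen after its values were seen, had 48.3 h in STM2457 and 3.77 h in DMSO. CCNH and CCNA2 were also named after their values were seen.

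**Figure D4:**
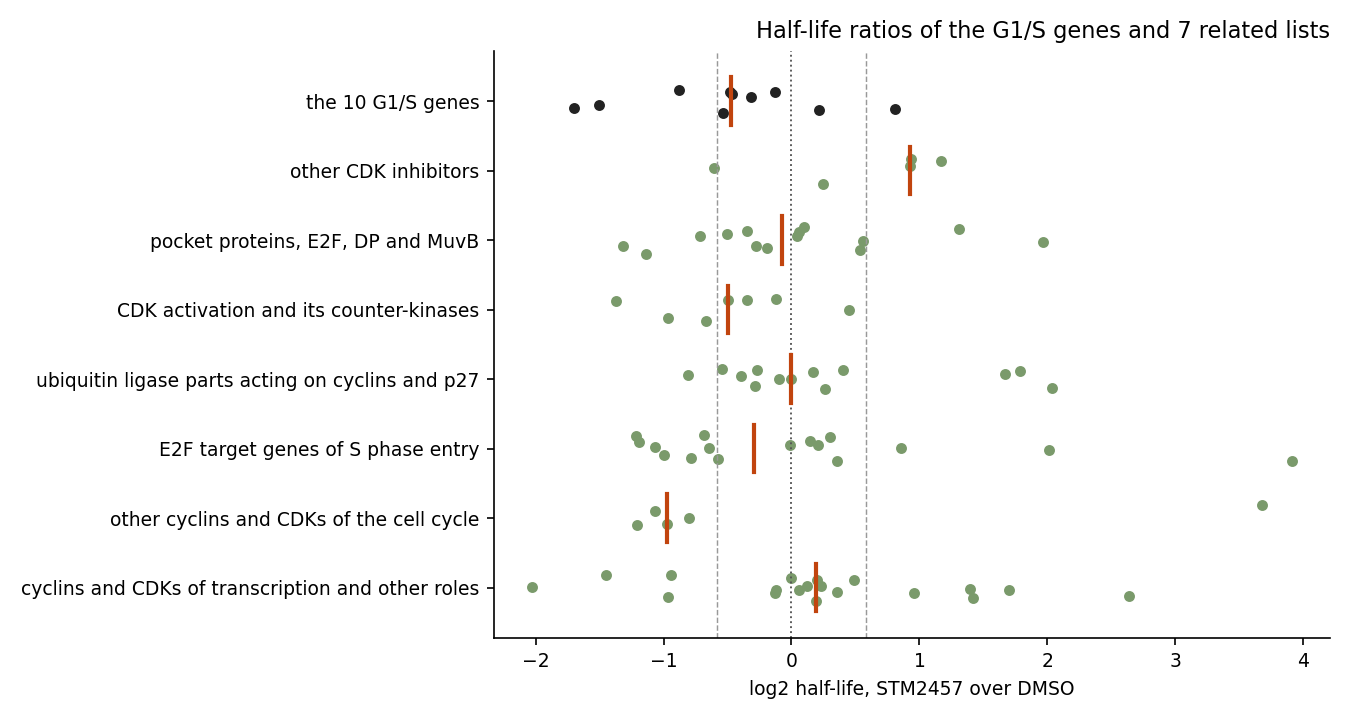
Log2 half-life ratios, STM2457 over DMSO (x axis), of the 10 genes (top row) and of the members in the table of 7 related lists; each point is 1 gene, the thick bar is the median of the row, the dotted line the median of all genes and the dashed lines 1.5-fold. The medians run from -0.97 for the other cell-cycle cyclins and CDKs to 0.93 for the other CDK inhibitors, and the 10 genes lie between them at -0.47.

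For each member the gene with the most similar kinetics was the one at the smallest Euclidean distance over 4 log2 values, the half-life and the synthesis rate in both treatments, among 8993 genes. These were RACGAP1 for CCND1, RPP30 for CCND2, MLST8 for CCND3, PAXIP1-AS1 for CCNE2, USP48 for CDK4, PRPSAP1 for CDK6, NOLC1 for CDK2, HOXB3 for CDKN1B and KPTN for RB1. For CCNE1 it was the gene that the table lists as AC027237.1, whose identifier ENSG00000137807.15 belongs without its version to KIF23. Distances ran from 0.0930 for CCNE1 to 0.374 for CCND3. Since the synthesis rates may depend on gene length, so may this choice of genes. As an example, RACGAP1 had half-lives of 1.49 h in STM2457 and 2.59 h in DMSO.

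Exons of 7 of the 10 genes overlap an exon of another annotated gene, all but CCNE1, CDKN1B and RB1. On the same strand this concerns CCND2, with AC008012.1, and on the opposite strand CCND1 (LTO1), CCNE2 (INTS8), CDK4 (TSPAN31) and CDK2 (PMEL) among others. No source used here states whether reads were counted by strand, so values of these genes are uncertain to that extent. CCND2, CCND3 and CDK4 also have annotated pseudogenes that could share reads.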

How the data were processed

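Per the labels' protocols, RNA was alkylated with iodoacetamide and read from its 3′ end with the Lexogen QuantSeq forward kit; 1 library had a lower input, which the labels do not tie to a sample. The submitters' processing notes name STAR 2.7.8a, FastQC 0.11.9 and the build GRCh38.p12. No source used here gives the fitting tool, the gene filter or the libraries behind each fit. The authors deposited half-lives, synthesis rates and their log2 ratios; log2 ratios recomputed here differed from the deposited ones by at most 1.27e-14. For 3 genes with a synthesis rate of 0 in STM2457 no synthesis ratio was used. No test was possible with 1 value per gene and treatment.

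Members and lists were chosen with earlier results of these data known. Named genes were the members, METTL3, the highest and lowest gene of each list with both half-lives between 0.5 and 24 h, and the nearest gene of each member. GENCODE release 29 (GRCh38) gave positions and motifs: without version numbers 8982 of 8996 identifiers were found, with them 3241, and 8527 genes had a coding transcript. The level after 6 h and the principal transcript were added after seeing the data. The code for calls and for the motif search was checked on made-up data without noise. That check gives no error rate for the fitted values. Python 3.11.15, NumPy 2.4.6, pandas 2.3.3 and Matplotlib 3.10.9 were used.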

Additional observations from a re-analysis of the deposited data

How the results depend on the processing

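No paired analysis was possible because the table holds no value per sample, and leaving out a replicate was not run for the same reason. With a 2-fold rule, 0 members were longer-lived (19.7% of all genes), 2 shorter-lived (11.3%), 0 higher (5.6%) and 0 lower (3.18%) in synthesis. In implied level 0 were higher (20.4%) and 1 was lower (10.4%). With a lower rule of 0.32 (log2), 1 was longer-lived (35.4% of all genes), 6 shorter-lived (36.5%), 3 higher (22.8%) and 2 lower (28.2%) in synthesis. In implied level 0 were then higher (35.8%) and 5 lower (36.9%). Relative to the median of all genes, 3 members were higher in synthesis, because CCND3 (0.62) and RB1 (0.59) then pass 1.5-fold (log2); no half-life call changed. Relative to the 200 genes nearest in DMSO half-life, CCNE1 (-0.85) passed the rule and CCNE2 (0.37) no longer did, and 7 of 10 members lay below 0. After 6 h, CDK6 (-0.52) and RB1 (-0.33) were no longer lower in implied level. All 10 members had both half-lives between 0.5 and 24 h and none was at the ceiling, so those alternatives changed no count. Leaving out 1 member at a time gave a median log2 ratio from -0.48 to -0.46 for half-life and from 0.05 to 0.14 for synthesis. The 27 motifs far from a junction over the 10 genes became 8 at a distance of 200 nt, 1 for GGACT and 11 in the transcripts with the fewest. Over all 7 lists, of 78 genes 17 (21.8%) were longer-lived and 22 (28.2%) shorter-lived, against 28.5% and 24.9% of all genes. Past 2-fold, 13 were longer-lived (19.7% of all genes) and 9 shorter-lived (11.3%). With both half-lives within 0.5 to 24 h, 67 genes remained, of which 9 were longer-lived and 22 shorter-lived. The limit of 24 h takes out genes with long half-lives in STM2457, and no share of all genes was computed for that range. Nothing is read from the counts within it. The table gives no counts, so what depth limits cannot be stated.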

Other observations

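Cyclins and CDKs with roles in transcription or outside the cell cycle had ratios in both directions, as all genes did. Of 25 such genes, 19 were in the table, of which 5 were longer-lived in STM2457 than in DMSO, 4 shorter-lived and 10 within 1.5-fold (median log2 ratio 0.19). CCNJ had a half-life of 13.3 h in STM2457 and 2.13 h in DMSO, 6.23-fold longer. CDK8, a kinase of the Mediator complex, had 2.21 h in STM2457 and 9.01 h in DMSO, 4.08-fold shorter. The following were chosen after their values were seen. CCNC, the cyclin partner of CDK8, had 5.18 h in STM2457 and 10.1 h in DMSO. CDK12, which phosphorylates RNA polymerase II, had 7.74 h in STM2457 and 2.95 h in DMSO, and CCNT1, the cyclin of the elongation factor P-TEFb, had 2.67 h in STM2457 and 1.00 h in DMSO. CCNL1, a cyclin linked to splicing, had 0.741 h in STM2457 and 0.681 h in DMSO, close to the half-lives of CDKN1B.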
